A study of Mus musculus with 23 samples.

Results

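The proteasome genes were taken as every gene whose symbol starts with Psma, Psmb, Psmc, Psmd, Psme, Psmf or Psmg followed by a number, and 50 of the 21878 genes in the expression tables met this rule. They were measured by bulk RNA-Seq in 17 libraries of sorted mouse neutrophils. In the tissue experiment, CD45+CD11b+Ly6G+ neutrophils came from the bone marrow (BM), peripheral blood (PB) and perfused lung of WT C57BL/6J mice, with 3 libraries per tissue. In the Piezo1 experiment, neutrophils came from the PB and lung of WT and Piezo1-cKO mice, with 2 libraries per group, and BM was not sampled. The study's methods describe negative selection before sorting for PB and lung, and do not name BM in that step. Their tissue protocol digests lung with collagenase, a step not given for PB or BM. Differences between tissues therefore cannot be told apart from differences in handling. Piezo1-cKO mice carried floxed Piezo1 alleles and the Vav1-iCre driver, which is active in all hematopoietic cells and not in neutrophils alone. Per the study's methods, its mice were young adults of either sex, while the age and sex behind each library were not given. For the sequenced WT mice of the Piezo1 experiment it was not stated whether they carried floxed alleles. The replicates of the tissue experiment were described as separate mice. This was not stated for the Piezo1 experiment, so its p-values measure only the spread between these libraries, which may be technical.

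The proteasome is the protease that degrades proteins tagged with ubiquitin. Its 20S core is a barrel of 4 stacked rings, the outer ones built from alpha subunits (Psma genes) and the inner ones from beta subunits (Psmb genes), and 3 of the beta subunits cut proteins. Psmb6 has caspase-like, Psmb7 trypsin-like and Psmb5 chymotrypsin-like activity. In the immunoproteasome, which is common in leukocytes and is induced by interferon, Psmb9, Psmb10 and Psmb8 take their places and the peptides made are better suited to MHC class I presentation. The 19S regulatory particle binds ubiquitin chains, unfolds the substrate with the ATPases Psmc1 to Psmc6 and removes ubiquitin through Psmd14, and the Psme genes encode alternative caps of the core. Neutrophils mature in the BM, leave for the PB and are retained in the lung capillaries.

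By role, the 50 genes comprised 7 alpha subunits, 7 constitutive beta subunits, 3 immunoproteasome subunits, 6 ATPases and 11 other subunits of the 19S particle, 6 activators or inhibitors, 7 assembly factors, 2 tissue variants and Psmc3ip, which matches the rule by symbol only and encodes a meiotic recombination factor. The tissue variants Psma8 of testis and Psmb11 of thymus were essentially silent. Psma8 was listed at 0 in every library, and Psmb11 did not exceed 0.047 FPKM. FPKM is the number of fragments per kilobase of gene, scaled to the mapped fragments of the library, which allows for gene length and depth. How genes ranked against each other also differed between the experiments, as given below for Psme4 and Psmb2. Psme2b is a near-identical copy of Psme2, so the division of reads between them is uncertain.

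Promoter sequences are shown for the immunoproteasome subunits, which rose from BM to PB, and for Psmb5, the constitutive counterpart of Psmb8, which did not pass that test. The sequences are the 250 bases before the start site given by RefSeq (build GRCm38.p6), written 5′ to 3′ on the strand of the gene. Entries were found for 42 of the 50 genes. Psmb8 lies at chr17:34197945-34198194 on the plus strand, Psmb9 at chr17:34187331-34187580 on the minus strand, Psmb10 at chr8:105938393-105938642 on the minus strand and Psmb5 at chr14:54617996-54618245 on the minus strand. Capitals mark matches to the letters GAAANNGAAA (as bound by interferon regulatory factors), TGACNNNGC (as bound by the NRF factors) or CCAAT, searched on both strands.
Psmb8: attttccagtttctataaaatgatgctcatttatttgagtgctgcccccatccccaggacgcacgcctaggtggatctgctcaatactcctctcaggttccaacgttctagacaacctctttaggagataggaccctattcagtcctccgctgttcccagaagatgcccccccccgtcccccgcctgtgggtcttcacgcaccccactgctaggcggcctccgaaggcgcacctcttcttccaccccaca
Psmb9: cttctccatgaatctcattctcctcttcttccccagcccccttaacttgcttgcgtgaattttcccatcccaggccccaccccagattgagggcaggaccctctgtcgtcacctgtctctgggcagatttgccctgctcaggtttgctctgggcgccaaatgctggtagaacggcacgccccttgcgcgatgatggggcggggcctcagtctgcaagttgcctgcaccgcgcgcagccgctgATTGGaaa
Psmb10: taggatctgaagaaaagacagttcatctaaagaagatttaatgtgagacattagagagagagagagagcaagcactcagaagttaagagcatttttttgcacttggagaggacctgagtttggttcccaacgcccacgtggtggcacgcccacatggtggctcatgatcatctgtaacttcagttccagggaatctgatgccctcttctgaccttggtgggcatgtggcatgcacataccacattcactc
Psmb5: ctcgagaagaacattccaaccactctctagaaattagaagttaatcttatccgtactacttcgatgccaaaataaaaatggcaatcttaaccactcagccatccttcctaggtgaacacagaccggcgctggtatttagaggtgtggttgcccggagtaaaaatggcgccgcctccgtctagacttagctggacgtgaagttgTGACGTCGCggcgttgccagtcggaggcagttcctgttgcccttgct

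The Psmb5 window held TGACNNNGC, and the Psmb9 window held CCAAT on the reverse strand. No match to the 3 letter patterns was present in the Psmb8 and Psmb10 windows. Among the 42 proteasome genes with an entry, TGACNNNGC was present in 5 (11.9%, against 10.2% of all 32851 promoters), namely Psmb5, Psmb6, Psmc6, Psmd12 and Psmd9. CCAAT was present in 15 (35.7%, against 33.8%), of which 5 were alpha subunits of 7. GAAANNGAAA was present in 3 (7.14%, against 2.98%), namely Psmb3, Psmd4 and Psmd9, and in none of the immunoproteasome genes.

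The depth was 16480261 to 19321111 reads per library in the tissue experiment and 9608377 to 15014346 in the Piezo1 experiment, as recovered from the FPKM values. At this depth 35 proteasome genes had at least 100 reads in every library of the tissue experiment, and 37 in the Piezo1 experiment. All 6 neutrophil markers (S100a8, S100a9, Ly6g, Csf3r, Cxcr2 and Itgam) exceeded 1 FPKM in every library. Piezo1 itself was at 0.0758 FPKM or below in every library of the Piezo1 experiment, WT included, so its level did not check the genotype labels. In a bulk sample, fewer cells of a type and less RNA per cell cannot be told apart.

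Most proteasome genes were lower in PB than in BM and lower again in lung. The summed level of the 50 genes was 1304 ± 29.2 FPKM in BM, 1123 ± 67.8 in PB and 716.5 ± 18.3 in lung (SD, n = 3). As a share of all FPKM in the library, this was 0.263% in BM, 0.267% in PB and 0.173% in lung, with lung below both. Of the 46 genes tested, 35 had the order BM, PB, lung (76.1%, against 46.0% of all 8236 genes tested in lung against BM), and in 25 of these no library overlapped between neighbouring tissues (54.3%, against 29.6%). Another 9 peaked in PB, among them all 3 immunoproteasome subunits, and Psme2 and Psmg4 were lowest in PB. The highest single levels were Psme1 in BM (90.9 FPKM), Psmb8 in PB (107.0 FPKM) and Psme1 in lung (57.0 FPKM).

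The comparison of PB with BM asked what differs once neutrophils leave the marrow. Fold changes are differences of log2(FPKM + 1) from limma, which understate changes of low genes, and a gene was called at a Benjamini-Hochberg adjusted p below 0.05 with an absolute log2 fold change above 1. Of the 46 proteasome genes tested, 2 were lower in PB (4.35%) and 0 were higher, where 14.1% of all 8237 genes tested were lower and 7.85% higher. By adjusted p alone, 30 were lower (65.2%, against 43.2% of all genes) and 6 higher (13.0%, against 29.9%), and at an unadjusted p below 0.05 the counts were 31 and 6. The median log2 fold change was -0.29 for the proteasome genes and -0.12 for all genes tested.

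The deubiquitinase Psmd14 and the scaffold Psmd1, both of the 19S particle, were the 2 genes called. Psmd14 was at 19.8, 19.5 and 19.9 FPKM in BM and at 5.24, 4.83 and 4.29 FPKM in PB, 4.12-fold lower (log2 fold change -1.84 ± 0.07 SE, limma adjusted p = 2.08e-07). Psmd1 was at 12.6, 10.5 and 11.1 FPKM in BM and at 3.85, 3.54 and 3.57 FPKM in PB, 3.12-fold lower (-1.41 ± 0.08, adjusted p = 1.60e-06). In both genes every PB library was far below every BM library. Both calls held when the FPKM were rescaled by the median ratio between libraries.

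The catalytic subunits split by type. All 3 immunoproteasome subunits rose in PB by adjusted p, while Psmb6 and Psmb7 fell. Psmb8 was at 65.5, 64.3 and 61.0 FPKM in BM and at 105.9, 92.2 and 122.8 FPKM in PB, 1.68-fold higher (log2 fold change 0.73 ± 0.10, limma adjusted p = 2.35e-04). Psmb9 was at 62.7, 54.2 and 53.2 FPKM in BM and 87.5, 85.2 and 79.7 FPKM in PB (0.56 ± 0.07, adjusted p = 2.18e-04). Psmb10, much the lowest of the 3, was at 7.01, 6.90 and 5.78 FPKM in BM and 9.32, 9.24 and 8.61 FPKM in PB (0.41 ± 0.08, adjusted p = 0.00231). None of these groups overlapped, and none of the 3 changes reached the fold required for a call.

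Among the constitutive partners, Psmb6 changed most. It was at 29.7, 30.7 and 27.6 FPKM in BM and at 12.9, 14.1 and 15.6 FPKM in PB, 2.06-fold lower (log2 fold change -0.998 ± 0.08, adjusted p = 8.96e-06), just short of the fold threshold, which it passed without the third BM library (-1.04) or the third PB library (-1.06). Psmb7 was at 44.7, 43.3 and 44.3 FPKM in BM and 27.5, 29.1 and 29.6 FPKM in PB (-0.60 ± 0.05, adjusted p = 1.48e-05). Psmb5, at 37.0, 37.6 and 35.3 FPKM in BM and 30.0, 34.0 and 35.6 FPKM in PB, overlapped between the groups and did not pass the test (-0.14, 95% confidence interval -0.31 to 0.03, adjusted p = 0.112).

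**Figure D1:**
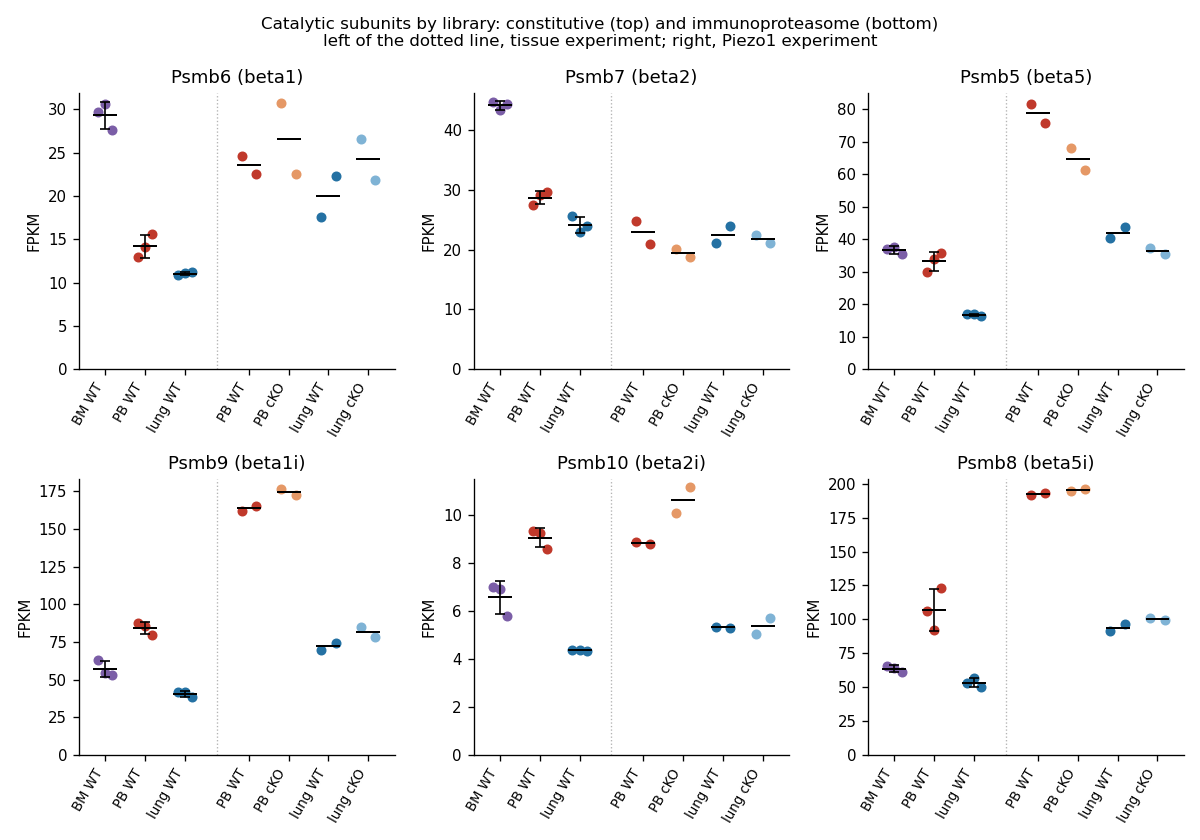
FPKM of the 3 constitutive catalytic subunits (top) and their immunoproteasome counterparts (bottom) in each library, with the mean as a bar and the SD where n = 3. Psmb8, Psmb9 and Psmb10 were highest in PB in both experiments, while Psmb6 and Psmb7 were highest in BM within the tissue experiment, and the vertical scale starts at 0 in each panel.

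The ratio of the summed FPKM of Psmb8, Psmb9 and Psmb10 to that of Psmb5, Psmb6 and Psmb7 does not depend on the scaling between libraries. It was 1.21, 1.12 and 1.12 in BM, 2.88, 2.42 and 2.61 in PB and 1.85, 2.02 and 1.82 in lung. The 3 tissues did not overlap. The mean was 1.15 ± 0.053 in BM, 2.64 ± 0.23 in PB and 1.89 ± 0.11 in lung (SD, n = 3). On the log2 scale PB exceeded BM by 1.19 ± 0.08 (SE), lung exceeded BM by 0.72 ± 0.06, and the ratio was lower in lung than in PB (-0.47 ± 0.09). The exact two-sided permutation test gave p = 0.1 for each, the smallest value that 3 against 3 libraries allow, and an adjusted p of 0.2 over 12 ratio tests. The pairs behaved unequally. Psmb9 to Psmb6 went from 1.93 in BM to 5.97 in PB and 3.68 in lung, Psmb8 to Psmb5 from 1.74 to 3.23 and 3.19, and Psmb10 to Psmb7 from 0.149 to 0.316 and 0.181.

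**Figure D2:**
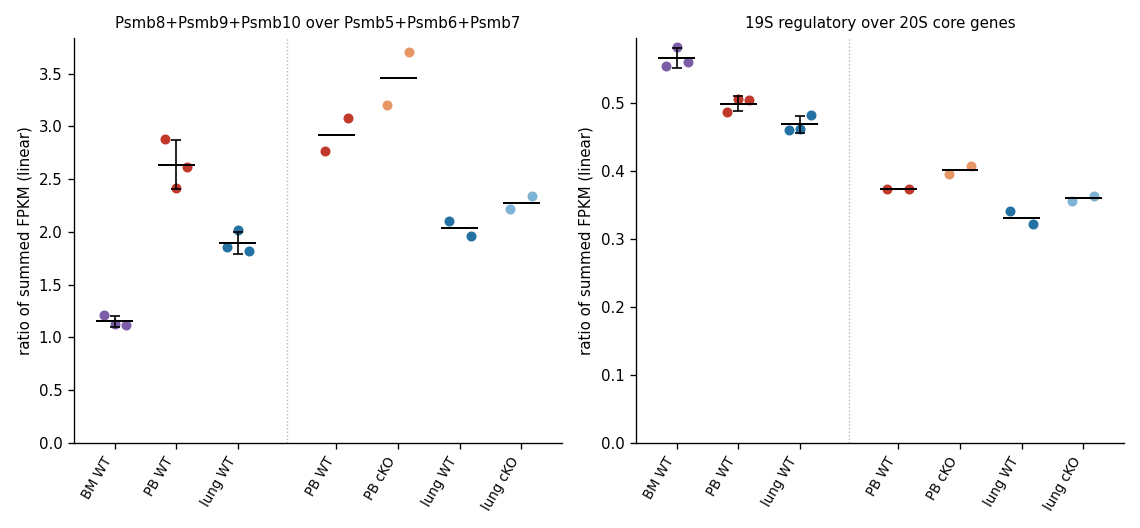
Ratio of summed FPKM in each library for immunoproteasome over constitutive catalytic subunits (left) and for the 19S regulatory particle over the 20S core (right), with the mean as a bar and the SD where n = 3. The immunoproteasome ratio was lowest in BM (1.12 to 1.21) and highest in PB. With Psmb8, Psmb9 and Psmb10 counted in the core, the regulatory ratio fell in the order BM, PB, lung.

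Outside the immunoproteasome, most subunits were lower in PB than in BM. By adjusted p, where 43.2% of all genes were lower and 29.9% higher, 5 of 7 alpha subunits fell and Psma3 rose. Of the constitutive beta subunits, 5 of 7 fell. All 6 ATPases fell, with a median log2 fold change of -0.54. Among the other 19S subunits, 7 of 11 fell and the ubiquitin receptor Psmd4 and the lid subunit Psmd8 rose. Of the activators and inhibitor, 5 of 6 fell. Psme3, the nuclear PA28 gamma cap, was at 24.0, 23.0 and 23.6 FPKM in BM and 13.7, 13.1 and 13.9 FPKM in PB (-0.76 ± 0.05, adjusted p = 5.09e-06). Of 6 assembly factors tested, 2 fell and 4 did not pass the test.

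BM neutrophils also differed in precursor markers. The summed FPKM of Mpo, Elane, Prtn3, Mki67 and Top2a was 33.6 to 35.4 in BM, 1.89 to 2.79 in PB and 2.65 to 3.59 in lung. In BM this sum came mainly from the proliferation genes Mki67 and Top2a, while the granule gene Mpo stayed below 1 FPKM in every library. Prtn3, another granule gene, went the other way, at 1.34 to 1.81 FPKM in BM and 1.77 to 2.44 FPKM in PB. Markers of macrophages and monocytes differed as well. The complement genes C1qa, C1qb and C1qc were at 3.23 to 6.58 FPKM in BM, at most 0.0522 FPKM in PB and at most 1.10 FPKM in lung. Csf1r was at 41.0 to 44.6 FPKM in BM, 127.1 to 141.5 FPKM in PB and 95.6 to 99.2 FPKM in lung, so the summed FPKM of the 5 genes of this list (52.9 to 57.1, 127.1 to 141.6 and 97.2 to 100.8) followed Csf1r. The part of these cells in the differences between tissues was not tested.

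The comparison of lung with PB addressed the lung phenotype at the center of the study. Of 46 proteasome genes tested, 5 were lower in lung (10.9%) and 0 were higher, where 19.5% of all 7577 genes tested were lower and 7.75% higher. By adjusted p alone, 40 were lower (87.0%, against 69.6%) and 1 was higher (2.17%, against 16.0%), and the counts at an unadjusted p below 0.05 were the same. The median gene of all tested was itself at -0.54, and the median proteasome gene at -0.69. After rescaling by the median ratio, 17 of 45 were lower by adjusted p (37.8%, against 34.6% of all genes) and 8 were higher (17.8%, against 32.1%). The size of the loss therefore depended on the scaling. Only Psmg3 was called after rescaling, as lower (2.22%, against 6.65% of all genes), and 0 were called higher (against 12.2%).

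Psmg3, a chaperone of core assembly, showed the largest decrease. It was at 2.87, 4.81 and 5.52 FPKM in PB and at 0.872, 0.580 and 0.543 FPKM in lung, 6.62-fold lower (log2 fold change -1.67 ± 0.19, adjusted p = 6.41e-05). The lung values rest on 15, 10 and 9 reads. All lie below 1 FPKM, so Psmg3 passed the expression filter only through PB, a selection that favours a lower lung value. The ATPase Psmc2 was at 13.9, 14.8 and 19.3 FPKM in PB and 8.02, 5.23 and 5.47 FPKM in lung (-1.24 ± 0.17, adjusted p = 1.71e-04). The base chaperone Psmd5 was at 7.13, 6.06 and 7.76 FPKM in PB and 2.65, 2.77 and 2.37 FPKM in lung (-1.15 ± 0.10, adjusted p = 1.29e-05). The other calls were Psmb9 and the lid subunit Psmd7, named after their values were seen, and both missed the fold threshold when the third lung library was left out (log2 fold change -0.994 and -0.997).

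All 3 immunoproteasome subunits were lower in lung than in PB. Psmb9 was at 41.8, 41.7 and 38.4 FPKM in lung, 2.07-fold below PB (log2 fold change -1.03 ± 0.06, adjusted p = 1.26e-06). Psmb8 was at 52.8, 56.6 and 50.3 FPKM and Psmb10 at 4.39, 4.38 and 4.35 FPKM in lung (-0.98 ± 0.10 and -0.90 ± 0.07). The constitutive subunit Psmb5, at 16.9, 16.9 and 16.2 FPKM in lung, was lower by a similar amount (-0.95 ± 0.07). Psmb6 (10.9, 11.1 and 11.2 FPKM in lung) and Psmb7 (25.6, 23.0 and 23.9 FPKM) were lower by less, at -0.33 ± 0.08 and -0.24 ± 0.06. Relative to the median gene, Psmb8, Psmb9, Psmb10 and Psmb5 lay below it and Psmb6 and Psmb7 above it.

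The PA28 cap genes Psme1 and Psme2 had unlike values. Psme2, which encodes the beta subunit of the 11S cap, was the 1 proteasome gene higher in lung by adjusted p. It was at 57.2, 47.5 and 55.2 FPKM in BM, 43.6, 43.2 and 44.0 FPKM in PB and 53.8, 50.3 and 49.7 FPKM in lung, which gave 0.23 ± 0.05 for lung against PB (adjusted p = 0.00365). The lung values lay above all PB values and within the range of BM. Its partner Psme1 was at 92.7, 90.9 and 89.0 FPKM in BM, 75.3, 72.9 and 78.7 FPKM in PB and 59.9, 53.8 and 57.1 FPKM in lung (-0.40 ± 0.06 for lung against PB, adjusted p = 2.98e-04). The Psme2 to Psme1 ratio was 0.587 in BM, 0.577 in PB and 0.901 in lung. The near-identical copy Psme2b was lower in lung, at 26.8, 26.2 and 21.2 FPKM in PB and 16.5, 15.3 and 13.0 FPKM in lung (-0.69 ± 0.11, adjusted p = 5.30e-04). Summed, the pair was at 70.4, 69.4 and 65.2 FPKM in PB and 70.3, 65.6 and 62.6 FPKM in lung. These sums overlapped, so the pair together did not show the higher level that Psme2 had in lung. The part of the division of reads between the copies was not tested. The ratio of the sum to Psme1 was 0.905 ± 0.067 in PB and 1.16 ± 0.062 in lung (SD, n = 3), without overlap. Psmg4, whose level of 0.490 to 1.68 FPKM in PB and lung rests on 5 to 16 reads, had the largest positive value and did not pass the test (0.32, 95% confidence interval -0.18 to 0.81).

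**Figure D3:**
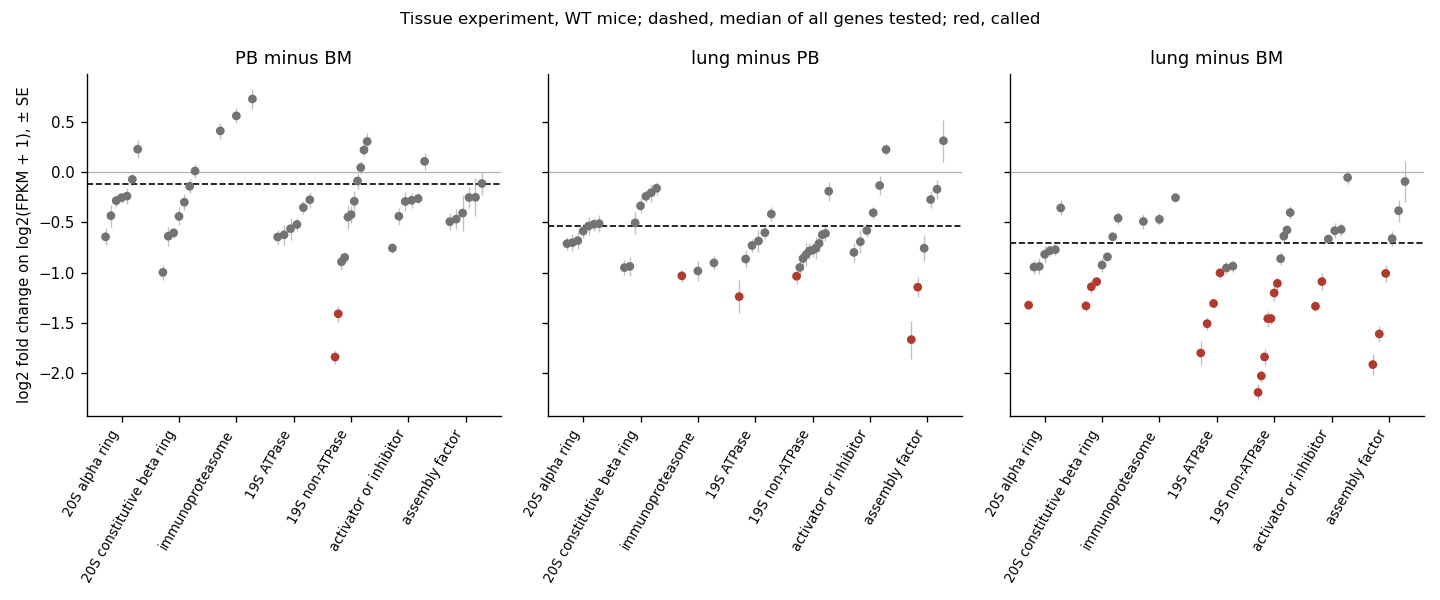
Log2 fold change (± SE) of each proteasome gene tested in the tissue experiment, by role, for PB minus BM, lung minus PB and lung minus BM. The dashed line is the median of all genes tested (-0.12, -0.54 and -0.70), and red points were called. The immunoproteasome genes stand above the other groups in PB minus BM.

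Lung against BM spanned both steps. Of 46 proteasome genes tested, 20 were lower in lung (43.5%) and 0 higher, where 36.0% of all 8236 genes tested were lower and 9.86% higher. By adjusted p alone, 44 were lower (95.7%, against 71.0%) and 0 higher (21.6% of all genes), and at an unadjusted p below 0.05 the counts were also 44 and 0. The median was -0.94 for the proteasome genes and -0.70 for all genes. After rescaling by the median ratio, 6 were called lower (13.0%, against 17.4% of all genes) and 0 higher (against 16.9%). The 6 were Psmd1, Psmd14, Psmg3, Psmc2, Psmd6 and Psmd5. By adjusted p, 30 were lower and 6 higher (65.2% and 13.0%, against 49.2% and 38.4% of all genes).

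The 19S particle carried most of these calls. Among its ATPases 4 of 6 were called and among its other subunits 7 of 11, against 1 of 7 alpha subunits and 3 of 7 constitutive beta subunits. Of all genes tested, 36.0% were called lower. Psmd1 fell to 1.86, 1.70 and 1.54 FPKM in lung, 6.69-fold below BM (log2 fold change -2.20 ± 0.08, adjusted p = 1.71e-09). Psmd14 fell to 3.67, 4.39 and 4.17 FPKM, 4.84-fold below BM (-2.03 ± 0.06, adjusted p = 4.19e-10), and most of this difference was already present in PB. Psmg3, at 5.81, 4.53 and 5.53 FPKM in BM, was 7.96-fold lower in lung (-1.92 ± 0.11, adjusted p = 3.89e-08), and it passed the expression filter only through BM. Psme3 was at 8.78, 8.18 and 9.23 FPKM in lung and was called lower than in BM (-1.34 ± 0.05), as were Psmb6 and Psmb5 (-1.33 ± 0.05 and -1.09 ± 0.04), although these 3 calls were lost after rescaling.

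No immunoproteasome gene was called between lung and BM. Psmb8, Psmb9 and Psmb10 lay 0.45, 0.24 and 0.21 above the median gene on the log2 scale, although each was lower by deposited FPKM (-0.25, -0.47 and -0.49), so their direction turned with the scaling. Psme2 overlapped between lung and BM (-0.05, 95% confidence interval -0.20 to 0.09, adjusted p = 0.447). The summed FPKM of the 17 regulatory particle genes over the 17 core genes was 0.565 ± 0.014 in BM, 0.499 ± 0.011 in PB and 0.468 ± 0.012 in lung (SD, n = 3), with no overlap between tissues. Lung differed from BM by -0.27 ± 0.03 on the log2 scale (exact permutation p = 0.1, adjusted p = 0.2).

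The Piezo1 experiment sampled lung and PB again in WT mice, with no library in common with the tissue experiment. Of 44 proteasome genes tested, 10 were lower in lung (22.7%) and 0 higher, where 26.5% of all 7143 genes tested were lower and 7.5% higher. By adjusted p alone, 42 were lower (95.5%, against 72.5%) and 0 higher (16.5% of all genes), with 42 and 0 also at an unadjusted p below 0.05. The median was -0.78 for the proteasome genes and -0.62 for all genes. After rescaling, 2 remained called lower, Psmg3 and Psmd3 (4.55%, against 10.5% of all genes), and 0 were called higher (against 12.5%). By adjusted p, 21 were lower and 4 higher (47.7% and 9.09%, against 41.6% and 35.3% of all genes).

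Across the 44 genes tested in both experiments, 43 had the same sign (97.7%, against 90.3% of the 6719 genes tested in both) and 38 were lower by adjusted p in both (86.4%, against 63.7%). Relative to the median gene, 29 lay on the same side in both (65.9%, against 79.1%), 22 below and 7 above, and Pearson's r across these genes was 0.654, where the genes are not independent replicates. The genes called in both were all 5 of the tissue experiment and 5 of the 10 here, namely Psmb9, Psmc2, Psmd5, Psmd7 and Psmg3. Psmg3 was at 5.52 and 3.85 FPKM in PB and 0.535 and 0.994 FPKM in lung (-1.68 ± 0.18, adjusted p = 5.92e-05). Here too it passed the expression filter only through PB, so its calls in both experiments share that selection. The lid subunit Psmd3 was at 12.7 and 11.9 FPKM in PB and 3.57 and 3.28 FPKM in lung (-1.59 ± 0.08, adjusted p = 1.23e-06), and Psmd5 was at 18.1 and 17.1 FPKM in PB and 6.31 and 4.98 FPKM in lung (-1.49 ± 0.10, adjusted p = 6.07e-06). Calls that rested on 1 library were Psmb8 (-0.986 without the first lung library), Psmc2 (-0.987 without the second PB library) and Psmd9 (-0.876 without the first PB library and -0.941 without the first lung library).

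**Figure D4:**
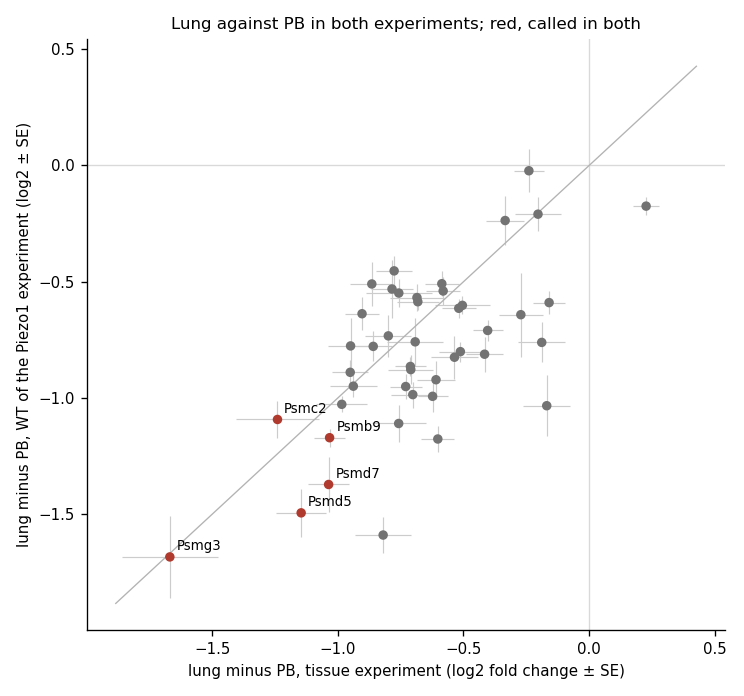
Log2 fold change (± SE) of lung minus PB for the 44 proteasome genes tested in both experiments, with the tissue experiment on the horizontal axis, the WT libraries of the Piezo1 experiment on the vertical axis and the line of equal values. The genes in red, Psmb9, Psmc2, Psmd5, Psmd7 and Psmg3, were called in both.

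The immunoproteasome subunits and Psmb5 were again lower in lung. Psmb8 was at 191.7 and 192.9 FPKM in PB and 91.2 and 96.6 FPKM in lung (-1.03 ± 0.03), and Psmb9 at 161.9 and 165.5 FPKM in PB and 69.8 and 74.5 FPKM in lung (-1.17 ± 0.04). Psmb10 was at 8.88 and 8.81 FPKM in PB and 5.35 and 5.30 FPKM in lung (-0.64 ± 0.07). Psmb5 was at 81.7 and 75.8 FPKM in PB and 40.4 and 43.7 FPKM in lung (-0.89 ± 0.05). Psmb6, at 24.6 and 22.5 FPKM in PB and 17.6 and 22.3 FPKM in lung, did not pass the test (-0.24 ± 0.11, adjusted p = 0.0693). Psmb7, at 24.8 and 21.0 FPKM in PB and 21.0 and 23.9 FPKM in lung, overlapped between the tissues (-0.02 ± 0.09, adjusted p = 0.821). The immunoproteasome to constitutive ratio was 2.77 and 3.08 in PB and 2.11 and 1.96 in lung, a log2 difference of -0.52 ± 0.09 (exact permutation p = 0.333, the smallest that 2 against 2 libraries allow).

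Psme2 did not take the direction it had in the tissue experiment by deposited FPKM. It was at 54.6 and 53.9 FPKM in PB and 48.7 and 47.2 FPKM in lung (-0.17 ± 0.04, adjusted p = 0.00361), although it lay above the median gene in both experiments, by 0.76 and 0.44 on the log2 scale. Psme1 was at 78.9 and 84.8 FPKM in PB and 49.9 and 49.4 FPKM in lung (-0.71 ± 0.04). The Psme2 to Psme1 ratio was 0.664 in PB and 0.966 in lung. Psme2b was lower in lung again (-0.76 ± 0.10, adjusted p = 2.53e-04), and the summed pair was at 77.0 and 79.0 FPKM in PB and 60.9 and 62.4 FPKM in lung. Psme3 was at 15.0 and 14.3 FPKM in PB and 9.84 and 9.65 FPKM in lung (-0.54 ± 0.06).

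Some genes were on another level in the Piezo1 experiment as a whole. The PA200 activator Psme4 was at 7.25 to 12.7 FPKM in the tissue experiment and at 0.293 to 0.793 FPKM in the Piezo1 experiment, where it was not tested. The structural subunit Psmb2 was at 16.3 to 25.3 FPKM in the former and 60.2 to 100.5 FPKM in the latter. The tables were normalized separately and no test was made across them. Also below the filter were Psmg2, a core chaperone at up to 1.03 FPKM, and Psmc3ip at up to 0.568 FPKM, both in every comparison, and Psmg4 in lung against PB of the Piezo1 experiment. Psma8 and Psmb11 complete the genes not tested.

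Deletion of Piezo1 was compared with WT within each tissue. In lung, 0 of 45 proteasome genes tested were called in limma, where 0.793% of all 6434 genes tested were higher and 0.202% lower in Piezo1-cKO. At an unadjusted p below 0.05, 15 were higher and 10 lower. By adjusted p alone, 13 were higher (28.9%, against 35.0% of all genes) and 8 lower (17.8%, against 15.8%), and the medians were 0.05 and 0.09. After rescaling the split turned to 8 higher (17.8%, against 24.9% of all genes) and 13 lower (28.9%, against 23.5%), and the median of the proteasome genes to -0.01.

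The largest increases in lung were small. Psmd3 was at 3.57 and 3.28 FPKM in WT and 5.38 and 6.01 FPKM in Piezo1-cKO, 1.66-fold higher (log2 fold change 0.60 ± 0.09, adjusted p = 0.00195). Psmd14 was at 5.79 and 5.35 FPKM in WT and 8.24 and 8.14 FPKM in Piezo1-cKO (0.48 ± 0.08, adjusted p = 0.00210). The ATPase Psmc4 was at 15.3 and 14.8 FPKM in WT and 21.0 and 20.7 FPKM in Piezo1-cKO (0.44 ± 0.05, adjusted p = 8.03e-04). The largest decreases were in the inhibitor Psmf1 (2.01 and 2.25 FPKM in WT, 1.43 and 1.55 in Piezo1-cKO, -0.33 ± 0.10), in Psmb4 (44.1 and 50.7 against 35.1 and 41.6 FPKM, -0.30 ± 0.10) and in Psmb1 (39.1 and 39.7 against 33.9 and 30.7 FPKM, -0.28 ± 0.06).

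In Piezo1-cKO lung, Psmb8 was at 101.2 and 99.7 FPKM, Psmb9 at 85.0 and 78.1 FPKM and Psmb10 at 5.03 and 5.71 FPKM, and only Psmb9 passed the adjusted p (0.17 ± 0.05, adjusted p = 0.0283). Psmb5 was at 37.4 and 35.4 FPKM and lower than in WT (-0.20 ± 0.05, adjusted p = 0.0174), whereas Psmb6 (26.6 and 21.9 FPKM) and Psmb7 (22.4 and 21.0 FPKM) overlapped with WT. The immunoproteasome to constitutive ratio was 2.21 and 2.34 in Piezo1-cKO lung, above both WT libraries by 0.16 ± 0.07 on the log2 scale (exact permutation p = 0.333). The pairs were unequal. Psmb8 to Psmb5 was higher by 0.31 ± 0.03, while Psmb9 to Psmb6 (-0.11 ± 0.15) and Psmb10 to Psmb7 (0.05 ± 0.17) overlapped with WT. Psme3 was higher at 13.0 and 12.5 FPKM (0.35 ± 0.06, adjusted p = 0.00333), Psme2 lower at 41.5 and 44.4 FPKM (-0.16 ± 0.05, adjusted p = 0.0281), and Psme1, at 53.1 and 52.8 FPKM, did not pass the test (0.09 ± 0.04, adjusted p = 0.0745).

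In PB, 1 of 45 proteasome genes tested was called higher in Piezo1-cKO (2.22%) and 0 lower, where 1.68% of all 7256 genes tested were higher and 1.97% lower. By adjusted p alone, 14 were higher (31.1%, against 26.5%) and 7 lower (15.6%, against 23.2%), and at an unadjusted p below 0.05 the counts were 15 and 11. The gene called was Psmg4, a core chaperone at 0.822 and 0.361 FPKM in WT and 2.63 and 3.70 FPKM in Piezo1-cKO (log2 fold change 1.39 ± 0.18, adjusted p = 0.00125). These values rest on 6 and 3 reads against 14 and 29. In PB, Psmg4 passed the expression filter only through the 2 Piezo1-cKO libraries, a selection that favours a higher value there. The call was lost when either of these libraries was left out, since the gene then fell below the filter.

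Psmc5, an ATPase of the 19S base, was at 13.0 and 15.9 FPKM in WT PB and 28.4 FPKM in both Piezo1-cKO libraries, 1.97-fold higher (0.93 ± 0.09, adjusted p = 5.38e-04). It passed the fold threshold without the second WT library (1.07). Psmg3 was at 5.52 and 3.85 FPKM in WT and 9.83 and 7.60 FPKM in Piezo1-cKO (0.78 ± 0.16, adjusted p = 0.00777). The largest decreases were in Psmb2 (91.7 and 100.5 FPKM in WT, 65.9 and 76.9 in Piezo1-cKO, -0.43 ± 0.08), in the scaffold Psmd2 (21.4 and 22.4 against 15.7 and 16.7 FPKM, -0.41 ± 0.07) and in the ATPase Psmc6 (32.3 and 33.9 against 25.6 and 24.8 FPKM, -0.38 ± 0.06).

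The immunoproteasome subunits of PB differed little by genotype. In Piezo1-cKO, Psmb8 was at 194.4 and 196.4 FPKM (0.02, 95% confidence interval -0.07 to 0.12), Psmb9 at 176.4 and 172.3 FPKM (0.09 ± 0.04, adjusted p = 0.114) and Psmb10 at 10.1 and 11.2 FPKM (0.24 ± 0.08, adjusted p = 0.0392). Psmb5 was lower at 68.0 and 61.3 FPKM (-0.28 ± 0.07, adjusted p = 0.0122), and Psmb6 (30.7 and 22.5 FPKM) and Psmb7 (20.2 and 18.7 FPKM) did not pass the test. The immunoproteasome to constitutive ratio was 3.20 and 3.71 in Piezo1-cKO PB (0.24 ± 0.13 above WT, exact permutation p = 0.333). By pair, Psmb8 to Psmb5 (0.31 ± 0.10) and Psmb10 to Psmb7 (0.50 ± 0.17) were above WT, and Psmb9 to Psmb6 overlapped with it (-0.07 ± 0.22). Psme1 was higher at 99.6 and 105.6 FPKM (0.32 ± 0.06, adjusted p = 0.00368), and Psme2 at 41.4 and 49.6 FPKM and Psme3 at 12.7 and 11.5 FPKM were lower (-0.25 ± 0.08 for each, adjusted p = 0.0401 and 0.0306).

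Erythroid markers moved with genotype in PB. Hba-a1, which encodes alpha globin, was at 9.36 and 10.7 FPKM in WT and 431.7 and 449.8 FPKM in Piezo1-cKO. Hbb-bt, a beta globin, was at 1.69 and 0.951 FPKM in WT and 134.3 and 108.2 FPKM in Piezo1-cKO. In lung, Hba-a1 was at 1.44 and 1.90 FPKM in WT and 0 and 1.003 FPKM in Piezo1-cKO. The part of this RNA in the proteasome differences of PB was not tested.

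The genotype difference was also compared between the tissues in 1 model, as the difference in lung minus the difference in PB. Of 45 proteasome genes tested, 14 differed by adjusted p (31.1%, against 48.2% of all 7560 genes tested). Of these, 6 were positive (13.3%, against 29.7% of all genes) and 8 negative (17.8%, against 18.5%), so the negative share was near that of all genes. Psmg4 and Psmc5 had the most negative values (-1.52 ± 0.44 and -0.98 ± 0.12, adjusted p = 0.0216 and 4.49e-04), followed by Psmb4 (-0.51 ± 0.13, adjusted p = 0.0100). In lung, Psmc5 averaged 9.81 FPKM in WT and 9.48 FPKM in Piezo1-cKO. Psmd3, Psmd2 and Psme3 had the most positive values (0.78 ± 0.12, 0.72 ± 0.12 and 0.61 ± 0.09), and each was higher in Piezo1-cKO in lung and had a negative difference in PB. No immunoproteasome gene differed between the tissues in this test. Without the second Piezo1-cKO lung library 9 genes passed.

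**Figure D5:**
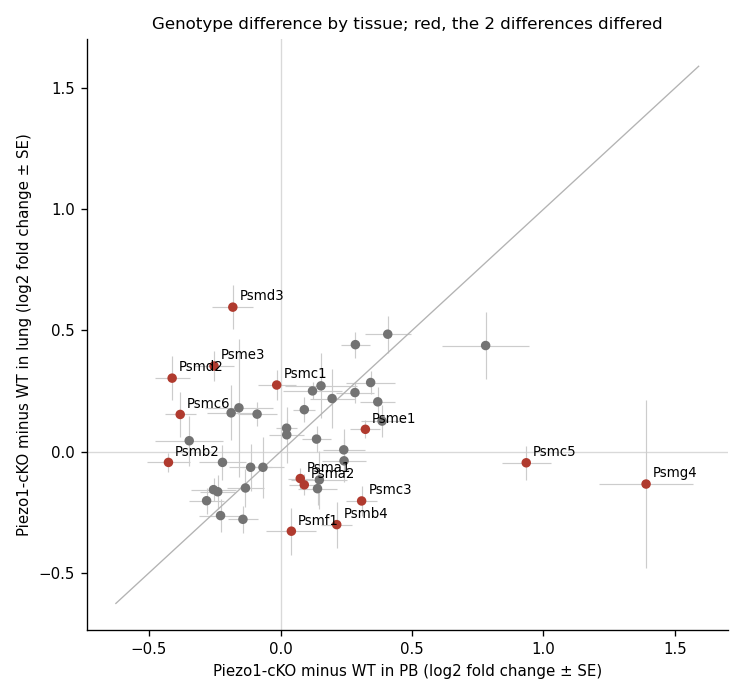
Log2 difference (± SE) between Piezo1-cKO and WT in PB (horizontal) and in lung (vertical) for each proteasome gene tested, with the line of equal values. The 14 genes in red differed between the tissues by adjusted p, with Psmc5 and Psmg4 far to the right and Psmd3 at the top.

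Other genes of the pathway were counted from 3 lists. Among ubiquitin receptors, deubiquitinases and partners of the proteasome (7 genes), 2 of 6 tested were called lower in lung than in PB in each experiment (where 19.5% and 26.5% of all genes were), the ubiquitin receptor Adrm1 (log2 fold change -1.05 ± 0.07 and -1.35 ± 0.09) and the nuclear import factor Akirin2 (-1.58 ± 0.11 and -1.40 ± 0.10). Both were also the 2 called lower in lung than in BM, as were 36.0% of all genes. Pomp, the maturation factor of the core, was the 1 called lower in PB than in BM (-1.14 ± 0.09), as were 14.1% of all genes. Of 8 shuttle and segregase genes, 4 were called lower in lung than in BM (against the same 36.0%), led by the unfoldase Vcp (-2.25 ± 0.06), and Vcp was called lower in lung than in PB in both experiments (-1.41 ± 0.09 and -1.13 ± 0.06).

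The transcription factors of proteasome genes moved apart. Nfe2l2 (NRF2) was at 76.7 FPKM in BM, 143.1 in PB and 444.7 in lung (2.52 ± 0.03 for lung against BM and 1.63 ± 0.07 for lung against PB), and it was higher in lung than in PB in the Piezo1 experiment too (1.56 ± 0.02). Nfe2l1 (NRF1), which drives proteasome genes when proteasome activity falls short, was lower in lung than in BM and PB (-1.47 ± 0.07 and -1.03 ± 0.10). In the Piezo1 experiment it was lower in lung than in PB by adjusted p (-0.82 ± 0.09), short of the fold threshold. Among genes of MHC class I presentation and its activators, H2-K1 and Nlrc5 were called higher in lung than in BM (1.69 ± 0.02 and 1.60 ± 0.07). Irf1, an activator of immunoproteasome genes, was called higher in PB than in BM (1.71 ± 0.05) and lower in lung than in PB in both experiments (-1.59 ± 0.05 and -2.02 ± 0.03). Between PB and lung Nlrc5 went the other way. It was higher in lung by adjusted p in both experiments (0.78 ± 0.12 and 0.51 ± 0.09), short of the fold threshold. No gene of the 3 lists was called between Piezo1-cKO and WT in either tissue by adjusted p and fold. In the test of the genotype difference between tissues, 1 of 7 partners, 4 of 7 shuttle and segregase genes and 1 of 3 regulators passed, against 48.2% of all genes.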

How the data were processed

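Neutrophil RNA-Seq libraries were compared from the 17 libraries of the tissue and Piezo1 experiments, and 6 whole-lung libraries were not used. The authors trimmed reads with fastp, aligned them to mm10 with HISAT2, counted with HTSeq-count and deposited FPKM values. Tool versions and the use of strand in counting were not given in the sources used here, and the labels and the study's methods name different library kits. Columns of the authors' own fold changes and p-values were not used. FPKM steps gave whole reads (tolerance 0.05) for 100.0% of genes in each library, and these were used only for depth. Log2(FPKM + 1) was fitted for the groups compared in limma 3.58.1 (trend and robust options, R 4.3.3), keeping genes at 1 FPKM or more in at least 3 (tissue) or 2 (Piezo1) libraries, with Benjamini-Hochberg adjustment over all genes tested. Ratios were tested by exact two-sided permutation. Per-library values were given for the catalytic and PA28 genes and for the 3 largest changes in each direction, with up to 3 called genes of each other list. The members and lists were chosen with earlier results of these data known. A few genes of the other lists are not reported here.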

Additional observations from a re-analysis of the deposited data

Results flagged for a closer look

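The difference between Piezo1-cKO and WT was not the same in lung and PB for 14 proteasome genes, by a test of the difference itself (limma, 2 libraries per group, adjusted p below 0.05). Values are the log2 difference in lung minus that in PB. They were negative for Psmg4 (-1.52), Psmc5 (-0.98), Psmb4 (-0.51), Psmc3 (-0.51), Psmf1 (-0.37), Psme1 (-0.23), Psma2 (-0.23) and Psma1 (-0.19). They were positive for Psmc1 (0.29), Psmb2 (0.38), Psmc6 (0.54), Psme3 (0.61), Psmd2 (0.72) and Psmd3 (0.78). By this test 48.2% of all genes differed, against 31.1% of the proteasome genes. Negative values made up 18.5% of all genes and 17.8% of the proteasome genes, and positive values 29.7% and 13.3%. Leaving out 1 of the 8 libraries at a time ended the call in 6 of 8 cases for Psmf1 and Psmc1, 5 for Psma1 and Psma2, 4 for Psme1, 3 for Psmg4 and 1 for Psmb2. Psmg4 rests on 2 to 29 reads per library of the Piezo1 experiment. The erythroid gene Hba-a1 was at 431.7 and 449.8 FPKM in Piezo1-cKO PB and 9.36 and 10.7 FPKM in WT PB, and its part in these differences was not tested.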

How the results depend on the processing

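The counts of called proteasome genes depended mainly on scaling and on the fold requirement. After rescaling FPKM by the median ratio between libraries, 6 genes were called for lung against BM (20 before), 1 for lung against PB and 2 for lung against PB in the Piezo1 experiment. All were lower, at 13.0%, 2.22% and 4.55% of the proteasome genes tested, against 17.4%, 6.65% and 10.5% of all genes. With adjusted p alone, the count was 44 of 46 for lung against BM, where 7628 of all 8236 genes passed. It was 36 of 46 for PB against BM (6023 of all 8237) and 41 of 46 for lung against PB (6479 of all 7577). For the same in the Piezo1 experiment it was 42 of 44 (6360 of all 7143). For genotype it was 21 of 45 in lung (3265 of all 6434) and 21 of 45 in PB (3607 of all 7256). A pseudocount of 0.1 gave 9 calls of 46 for lung against PB, all lower, where 2212 of all 7577 genes were called lower. Requiring an absolute difference above 1 left 1 of the 14 genes whose genotype difference varied between tissues, where 518 of all 7560 genes passed. Leaving out 1 library at a time gave 18 to 21 calls for lung against BM, 2 to 3 for PB against BM, 4 to 6 for lung against PB, 9 to 11 for the same in the Piezo1 experiment, 0 to 0 for genotype in lung, 0 to 2 for genotype in PB and 9 to 15 for the difference between tissues. The count for genotype in PB was 0 without either Piezo1-cKO library and 2 without the second WT library. The log2 immunoproteasome ratio kept its sign throughout, from 1.13 to 1.25 for PB minus BM and from -0.54 to -0.41 for lung minus PB. No called gene changed sign. After rescaling, the median log2 difference of the proteasome genes did, from 0.05 to -0.01 for genotype in lung and from 0.02 to -0.03 for the difference between tissues, and the genes higher in lung than in BM by adjusted p went from 0 to 6. The cause was not tested.

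Libraries sharing a number were not treated as paired, since the sources used here do not tie a number to a mouse. Their deviations from the group means correlated at -0.089 to 0.055. With the replicate number as a block, the counts were 20, 2, 5, 0, 1, 10 and 13, against 20, 2, 5, 0, 1, 10 and 14 without it.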
